A study of Mus musculus with 26 samples.

Results

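Aminoacyl-tRNA synthetases load each transfer RNA (tRNA) with its amino acid, and their transcripts were followed here in mouse B cell progenitors. The 36 genes were chosen by name: 20 that encode cytosolic synthetases, and 16 mitochondrial ones, whose symbols end in 2. All 36 were among the 23762 genes counted, and all 36 passed the filter on low counts that left 14862 genes for testing. The synthetase-like gene Tarsl2 was also in the table and was not in the set.

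RNA-seq covered 18 libraries in 9 groups of 2, from a study of the chemokine receptor CXCR4 in late B cell development. Sorted small pre-B cells, the stage that rearranges light chain genes, were labelled wild type or CXCR4-/-. Pre-B cell cultures held interleukin 7 (IL-7), lacked IL-7, lacked it with CXCL12 added, held both factors, or held CXCL12 plus ERK inhibitor II with no IL-7. The last groups were small pre-B cells labelled CXCR4-/- without IL-7, alone or with CXCL12. Libraries called CXCR4-deficient below are named so after those labels. Replicate 2 without IL-7 was titled as small pre-B cells, and replicate 2 without IL-7 with CXCL12 was so named in the table only. The sources used here do not give strain, age, allele design, doses or culture times, nor whether replicates came from different animals or dishes. The spread between libraries that the p-values rest on may thus be technical.

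A synthetase joins an amino acid to the matching tRNA with energy from ATP, and the ribosome reads the charged tRNA. Members of class I (such as Iars, Vars, Lars and Mars) and class II (such as Kars, Dars, Gars and Tars) differ in the fold of the catalytic core. In animal cells 8 of the cytosolic enzymes (Dars, Eprs, Iars, Kars, Lars, Mars, Qars and Rars) form the multi-synthetase complex around the scaffold proteins Aimp1, Aimp2 and Eef1e1. Mitochondria charge their own tRNAs with nuclear-encoded enzymes, and Gars and Kars serve both compartments from a single gene. IL-7 is the growth factor of B cell progenitors and CXCL12 is the ligand of CXCR4. The transcription factor Myc drives many genes of protein synthesis, and Atf4, the factor of the amino acid response, is known to induce a subset of the cytosolic synthetases.

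The promoters are shown for the 5 members that hold a C/EBP-ATF element, the type of site through which Atf4 acts, so that their values below can be read beside the sequence. RefSeq promoter windows of GRCm38.p6, 300 bases from 250 before to 50 after the gene start, were matched for 13 of the 20 cytosolic and 14 of the 16 mitochondrial genes. The letters TGATGNAA, searched on both strands, were found in 5 of the 13 cytosolic windows and in 0 of the 14 mitochondrial ones, against 4.51% of the 27025 genes with a window. The longer form TGATGNAAT, which contains the first, was in 3 of these 5 (Aars, Gars and Iars) and in 1.08% of all genes. The E-box CACGTG, the letters that Myc binds, was in Aars, Farsb, Iars, Tars and Ears2, and in 8.09% of all genes. The cyclic AMP element TGACGTCA was in 0 members and 2.03% of all genes. Below are 150 bases before and 30 after each gene start, 5′ to 3′ on the gene's strand, with TGATGNAA on either strand in capitals. Such a match describes the letters alone.
Aars (chr8:111033692-111033871, plus strand, alanine): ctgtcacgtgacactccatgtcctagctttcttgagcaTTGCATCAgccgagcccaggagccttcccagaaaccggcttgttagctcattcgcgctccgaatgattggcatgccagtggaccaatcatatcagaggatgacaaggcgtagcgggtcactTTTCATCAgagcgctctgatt
Gars (chr6:55037851-55038030, plus strand, glycine): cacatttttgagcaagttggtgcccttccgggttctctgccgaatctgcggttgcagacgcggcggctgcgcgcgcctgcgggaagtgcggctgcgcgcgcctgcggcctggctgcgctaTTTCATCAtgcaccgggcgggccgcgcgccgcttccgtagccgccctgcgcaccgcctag
Iars (chr13:49681980-49682159, plus strand, isoleucine): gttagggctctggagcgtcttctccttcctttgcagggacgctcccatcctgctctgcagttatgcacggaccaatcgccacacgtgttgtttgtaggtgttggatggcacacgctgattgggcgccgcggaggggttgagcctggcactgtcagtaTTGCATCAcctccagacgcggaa
Tars (chr15:11399629-11399808, minus strand, threonine): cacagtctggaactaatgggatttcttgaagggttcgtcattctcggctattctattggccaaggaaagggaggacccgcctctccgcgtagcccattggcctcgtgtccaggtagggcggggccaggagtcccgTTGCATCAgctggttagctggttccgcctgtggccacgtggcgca
Yars (chr4:129189753-129189932, plus strand, tyrosine): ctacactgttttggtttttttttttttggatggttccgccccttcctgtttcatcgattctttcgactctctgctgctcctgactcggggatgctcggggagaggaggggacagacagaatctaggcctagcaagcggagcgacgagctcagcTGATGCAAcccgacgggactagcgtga

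In Aars the pair of matches begins 112 bases before and 9 bases after the start. The match begins 30 bases before the start in Gars and 15 before it in Tars, and 7 and 3 bases after it in Iars and Yars. In Aars, Gars, Iars and Tars it is read on the opposite strand, and in Yars on the gene's own strand.

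Total counts ran from 17257914 to 50235192 per library, and levels are counts scaled to a common library total (CPM). The cultures formed sets that stood apart beyond their labels: Gapdh lay between 1399 and 1730.0 CPM with both factors or with the ERK inhibitor, and at 12.3 CPM or less elsewhere. Comparisons are therefore led by those within a set, and across sets the medium or genotype cannot be told apart from the set. Cxcr4 itself was 943 and 922 CPM in sorted wild type but 37.2 and 409 CPM in the sorted libraries labelled CXCR4-deficient, so replicate 2 goes against its label in part. In the cultures it was 114 to 137 CPM in those labelled CXCR4-deficient and 112 to 322 CPM in the others, and the sources used here do not say which part of Cxcr4 is removed. Replicate 1 of the CXCR4-deficient cultures without IL-7 also stood apart. Its scaling (TMM) factor was 0.838, against 0.999 in replicate 2 and 0.930 to 1.054 in the other groups. It differed from replicate 2 by a median of 0.24 (log2) over the synthetases, against 0.03 to 0.11 between replicates in the other groups. That difference alone does not show which of the 2 is unusual. The B-lineage gene Cd79a was detected in every library, at 465.5 CPM or more.

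Across all 9 groups the cytosolic synthetases varied over a median 2.60-fold between the lowest and the highest group mean, from 1.25-fold for Qars (glutamine) to 3.46-fold for Gars (glycine). The mitochondrial genes varied over a median 2.20-fold, from 1.42-fold for Wars2 (tryptophan) to 5.21-fold for Lars2 (leucine). Of the 20 cytosolic genes, 13 were lowest in a sorted group (7 in wild type and 6 in CXCR4-deficient cells), 6 in cultures with CXCL12 alone, and Vars (valine) with the ERK inhibitor. Their highest mean was in CXCR4-deficient cultures without IL-7 for 11, with both factors for 6, with IL-7 for 2 and in sorted CXCR4-deficient cells for Vars. These orders set groups of different sets side by side.

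**Figure D1:**
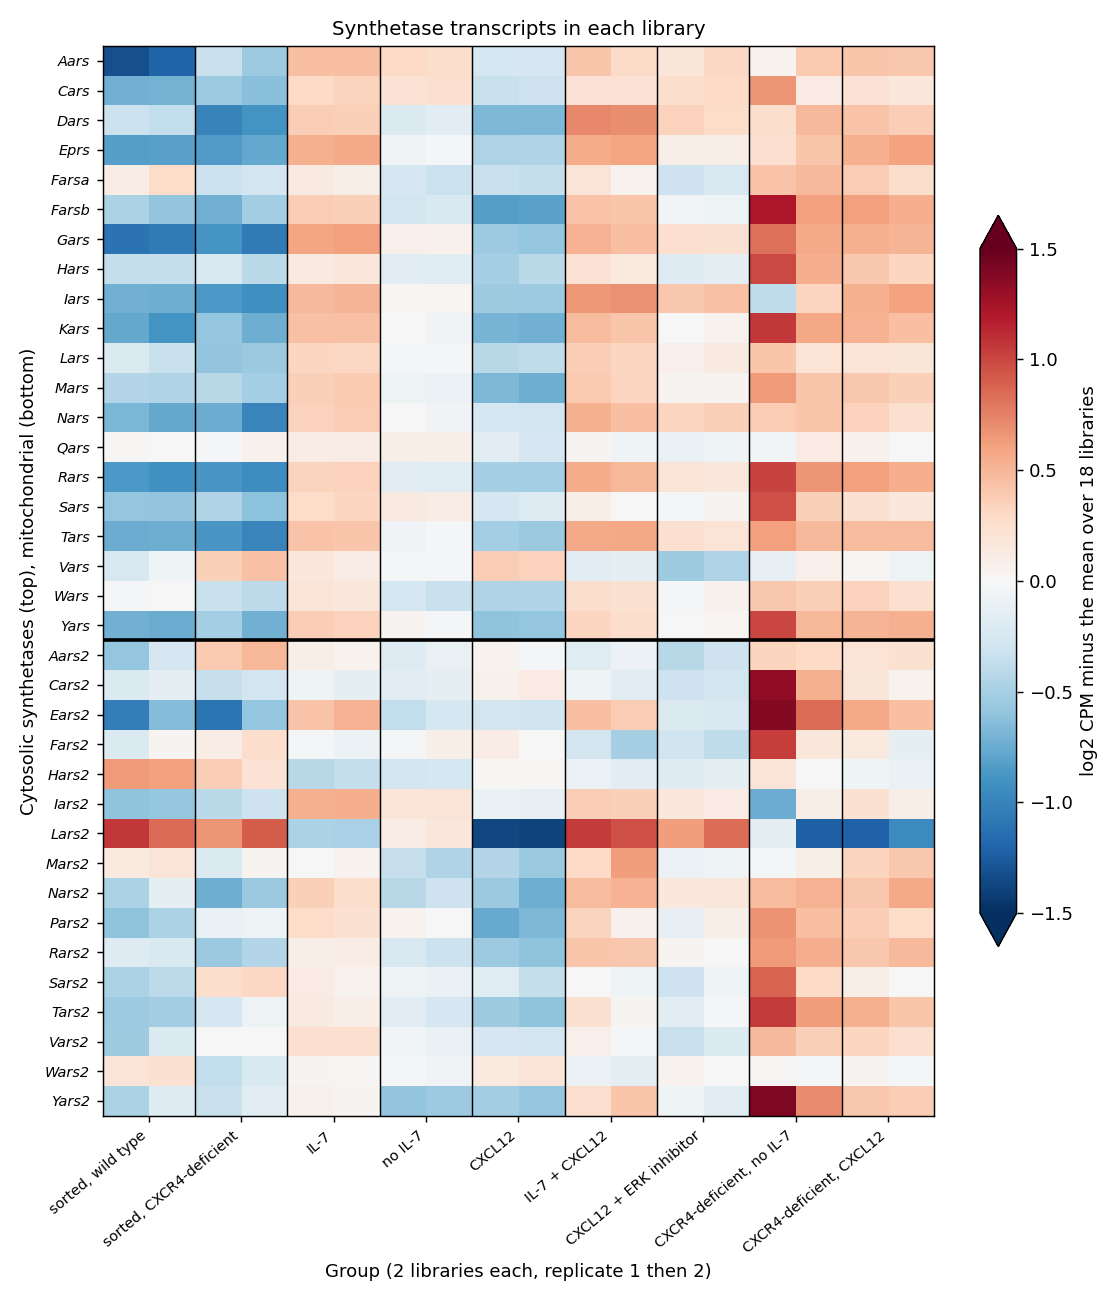
Each cell is the log2 CPM of a synthetase gene in 1 library, less that gene's mean over the 18 libraries; columns are the 9 groups with replicates 1 and 2 side by side. Most cytosolic genes (top 20 lines) run from red with IL-7 to blue with CXCL12 alone and in sorted cells, while Vars and Lars2 do not follow them.

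Loss of IL-7 was followed by comparing cultures without it with cultures that held it. Synthetase transcripts were lower without IL-7: 12 of the 20 cytosolic genes fell and 0 rose, at an adjusted p under 0.05 in edgeR's quasi-likelihood test (n = 2 libraries a group). Of the 14862 genes, 11.8% were called (5.6% higher and 6.23% lower). The median log2 change of the cytosolic genes was -0.43, against 0.05 for all genes. At an unadjusted p under 0.05, 15 cytosolic genes were lower and 0 higher, and DESeq2 called 13 lower and 0 higher. In bulk RNA, fewer cells of a type and less RNA per cell cannot be told apart, here and below.

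The deepest fall was in Farsb, the beta subunit of the phenylalanine enzyme. It was at 114 and 114 CPM with IL-7 and 73.0 and 75.7 CPM without it, a log2 change of -0.62 ± 0.14 (SE; edgeR adjusted p = 0.016). Both libraries without IL-7 lay below both with it, but the call ended when any 1 of the 4 was left out (adjusted p 0.077 to 0.13). Eprs, the fused enzyme for glutamate and proline, was at 356 and 366 CPM with IL-7 and 238 and 242 CPM without (-0.59 ± 0.08, edgeR adjusted p = 3.9e-04). Dars, the aspartate enzyme, was at 163 and 163 against 110.0 and 113 CPM (-0.55 ± 0.08, edgeR adjusted p = 9.6e-04). Eprs and Dars, with Gars, Mars, Tars and Wars, were the 6 whose call stood without any 1 of the 4 libraries.

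The remaining called genes were Rars, Kars, Farsa, Nars and Lars, and the 12 falls spanned -0.34 to -0.62. The 8 others, Iars, Yars, Hars, Sars, Aars, Vars, Cars and Qars, did not pass the test, with estimates from -0.47 to -0.03. In all 20 cytosolic genes the libraries without IL-7 lay below those with it, which held for 34.5% of all genes tested, and 0 lay above them (42.2% of all genes). The replicates without IL-7 differed by close to counting noise (median chi-square 0.60, against 0.45 from counting alone), as did those with CXCL12 (0.56). With each such pair summed to 1 library, 3 cytosolic genes and 0 mitochondrial ones were called (2.33% of all genes), and in a fit of the 4 compared libraries alone 20 and 12 (53.6%). Qars was at 186 and 185 CPM with IL-7 and 182 and 182 CPM without.

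Of the mitochondrial synthetases, 5 of 16 fell on loss of IL-7 and 0 rose, with a median log2 change of -0.27. Of all genes 6.23% were lower and 5.6% higher. Ears2, the mitochondrial glutamate enzyme, was at 10.3 and 10.95 CPM with IL-7 and 5.91 and 6.37 CPM without (-0.79 ± 0.20, edgeR adjusted p = 0.022). Nars2, for asparagine, was at 19.5 and 18.2 against 11.4 and 12.2 CPM (-0.67 ± 0.13, edgeR adjusted p = 0.0045). Yars2, for tyrosine, was at 23.9 and 23.6 against 15.2 and 15.8 CPM (-0.62 ± 0.18, edgeR adjusted p = 0.043). In each of these the groups did not overlap. Mars2 and Rars2 (-0.42 and -0.38) made up the 5, and with 1 library left out 0 to 1 mitochondrial genes were called.

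CXCL12 was then added in the absence of IL-7. Of the cytosolic genes 14 fell and 1 rose, where 30.6% of all genes were called, 17.3% higher and 13.2% lower. Their median log2 change was -0.45 against 0.09 for all genes. The comparison shares the libraries without IL-7 with the one before. With each close pair of replicates summed to 1 library, 3 cytosolic genes and 1 mitochondrial gene were called lower and 0 higher (7.54% of all genes).

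Kars, which charges lysine tRNA in both compartments, was at 209.7 and 201 CPM without IL-7, against 129.8 and 128 CPM once CXCL12 was present (-0.68 ± 0.12, edgeR adjusted p = 0.0016). Gars was at 210.3 and 209 against 137 and 133 CPM (-0.64 ± 0.09, edgeR adjusted p = 2.7e-04). Mars, the methionine enzyme, was at 128 and 127 against 84.8 and 81.5 CPM (-0.62 ± 0.08, edgeR adjusted p = 1.3e-04). Each of these 3 kept its call without any 1 library, as did Aars, Dars, Eprs, Lars, Tars and Yars. Farsb, Iars, Cars, Rars and Qars completed the falls, which ran from -0.29 in Qars to -0.68 in Kars. All 8 synthetases of the multi-synthetase complex were among the genes that fell. In 19 of 20 cytosolic genes both CXCL12 libraries lay below both without it and in 1, Vars, above, which held for 35.8% and 48.4% of all genes.

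Vars went the other way. This valine enzyme was at 699 and 694 CPM before and 917 and 905 CPM after CXCL12 (0.39 ± 0.09, edgeR adjusted p = 0.0062), with no overlap. Leaving out 1 library gave log2 changes of 0.38 to 0.40 and adjusted p of 0.038 to 0.054. Farsa, Hars, Nars, Sars and Wars did not pass, with estimates from -0.05 to -0.34.

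Among the 16 mitochondrial genes 4 fell with CXCL12 and 1 rose, with a median of -0.14. Of all genes 30.6% were called, 17.3% higher and 13.2% lower, so the share of 5 in 16 is near it. Lars2 was at 473 and 495 CPM in cultures lacking IL-7, against 171 and 168 CPM with CXCL12 (-1.52 ± 0.25, edgeR adjusted p = 8.5e-04), the largest change of the 36 genes in this comparison. It was at 315 and 313 CPM with IL-7, below the libraries without it, and at 906 and 858 CPM with both factors. The mouse Lars2 locus carries sequence close to ribosomal RNA, so reads from elsewhere may be counted in it and its values are uncertain. Pars2, for proline, was at 13.8 and 13.2 against 7.87 and 8.31 CPM (-0.74 ± 0.13, edgeR adjusted p = 0.0011). Tars2 (-0.36) and Rars2 (-0.29) also fell. Hars2, for histidine, was at 46.0 and 46.9 CPM in the first and 56.9 and 56.6 CPM in the second group (0.29 ± 0.08, edgeR adjusted p = 0.021), a rise that was not called when any 1 library was left out (adjusted p 0.092 to 0.13). Hars2 lies head to head with Hars, and without the strand setting of the counts reads where such genes overlap could be shared.

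Cultures with CXCL12 in place of IL-7 were also set directly against those with IL-7. Of the cytosolic genes 19 were lower and 0 higher, against 51.3% of all genes called, 29.8% higher and 21.5% lower. The same 19 did not overlap with IL-7 (38.4% of all genes lay lower without overlap), nor did Vars, which lay above (49.4%). The median was -0.78 (0.12 over all genes). Farsb, at 49.9 and 50.5 CPM with CXCL12, was lower by -1.18 ± 0.15 (edgeR adjusted p = 3.8e-05), and Gars by -1.17 ± 0.09 (edgeR adjusted p = 9.0e-07). Kars was lower by -1.14 ± 0.12 (edgeR adjusted p = 1.3e-05). The calls of 17 of the 19 stood without any 1 library. Vars was the exception, at 795 and 764 CPM with IL-7, with an estimate of 0.22 ± 0.09 (edgeR adjusted p = 0.051). Of the 16 mitochondrial genes 10 were lower, led by Pars2 (-0.97), Nars2 (-0.95) and Lars2 (-0.89), and Hars2 (0.40) was higher.

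A separate pair of groups held CXCL12 throughout and exchanged IL-7 for ERK inhibitor II, so that loss of IL-7 and the inhibitor cannot be told apart. Here 8 cytosolic synthetases fell and 0 rose, where 11% of all genes were called, 6.5% higher and 4.54% lower. At an unadjusted p under 0.05, 13 were lower and 0 higher. The median was -0.30 against -0.01 over all genes. Eprs was at 362 and 373 CPM with both factors and 261 and 263 CPM with the inhibitor (-0.49 ± 0.07, edgeR adjusted p = 0.0013), the 1 cytosolic call that stood without any 1 library (2 to 4 called). In a fit of the 4 compared libraries alone 15 cytosolic and 10 mitochondrial genes were called, all lower (44.8% of all genes). Kars was at 292 and 280.1 against 211 and 217 CPM (-0.42 ± 0.12, edgeR adjusted p = 0.048). Farsa, the alpha subunit of the phenylalanine enzyme, was at 101 and 91.3 against 70.5 and 74.4 CPM (-0.40 ± 0.08, edgeR adjusted p = 0.0073). No library with the inhibitor reached the level of either with IL-7 in these 3 genes. Over the 20 cytosolic genes this held for 17 (36.1% of all genes), while for 1, Cars, both lay above (32.1%). Dars, Rars, Vars, Tars and Mars also fell, by -0.40 to -0.31. Mars2 (27.0 and 34.1 against 20.7 and 21.1 CPM, -0.55 ± 0.12) and Rars2 (47.2 and 46.6 against 36.2 and 35.0 CPM, -0.40 ± 0.08) were the 2 mitochondrial genes called, with edgeR adjusted p of 0.012 and 0.0070.

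**Figure D2:**
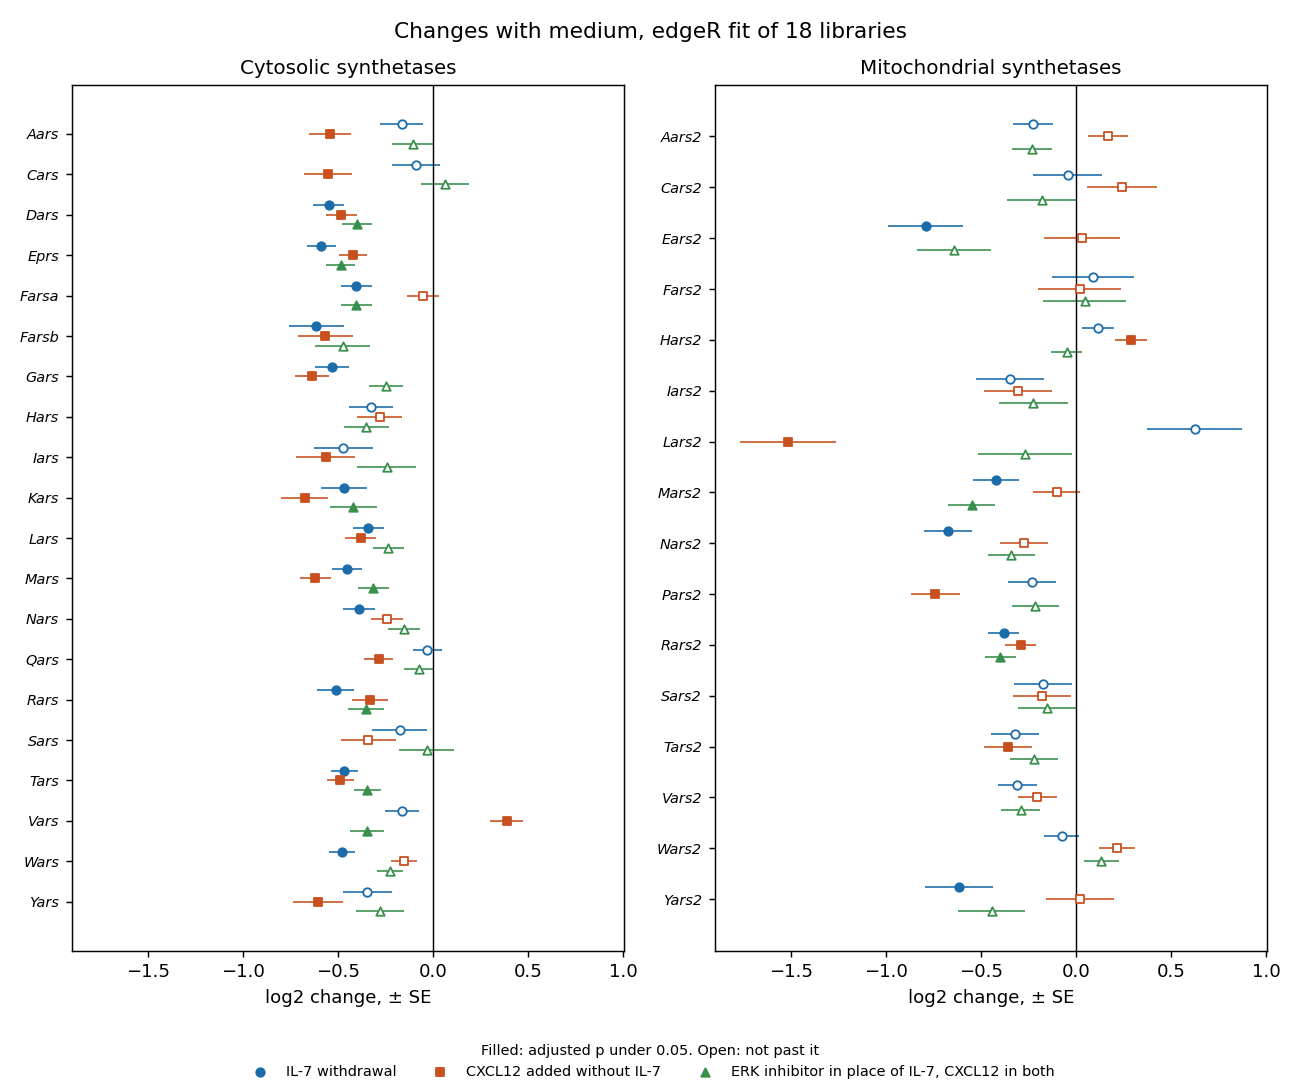
Points are log2 changes ± SE of each synthetase on loss of IL-7 (blue), on addition of CXCL12 without IL-7 (orange), and with the ERK inhibitor in place of IL-7 (green), filled where the adjusted p is under 0.05. The blue points of all 20 cytosolic genes lie left of 0, Vars has the 1 orange point of the left panel to the right of 0, and mitochondrial genes scatter more widely.

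Loss of IL-7 and its exchange for the inhibitor share no library. Of the cytosolic genes 19 of 20 (95%) had estimates below 0 in both, against 34.3% of all genes tested, and 7 of 20 were called lower in both, against 3.5%. The 7 were Eprs, Dars, Rars, Kars, Tars, Mars and Farsa. Of the mitochondrial genes 12 of 16 lay below 0 in both and 2, Mars2 and Rars2, were called lower in both.

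Myc moved with the medium in the same 2 sets. It was at 159 and 164 CPM with IL-7, 84.1 and 84.5 CPM without, and 27.7 and 25.2 CPM with CXCL12 alone. It was at 187 and 186 CPM with both factors and 73.4 and 72.4 CPM with the inhibitor. All of these steps were called (log2 changes of -0.94 ± 0.08, -1.67 ± 0.08 and -1.35 ± 0.08, edgeR adjusted p of 2.1e-05, 6.5e-08 and 3.4e-06). Atf4 was not called in these steps: it was at 347 and 348 CPM with IL-7, 329.8 and 321 CPM without, and 377 and 368 CPM with CXCL12, with estimates of -0.09 ± 0.16 and 0.19 ± 0.16. In the other set it was at 323 and 313 CPM with both factors and 297 and 294 CPM with the inhibitor (edgeR adjusted p = 0.79).

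The proliferation marker Mki67 was at 1771 and 1705 CPM with IL-7 and 2019 and 1995 CPM without it, and did not pass (0.21 ± 0.14, edgeR adjusted p = 0.40), while 12 cytosolic synthetases fell. With CXCL12 it was at 779 and 774 CPM. A list of 10 cell cycle genes, summed, gave 6051 and 6001 CPM with IL-7, 6205 and 6165 CPM without and 2122 and 2116 CPM with CXCL12. Of these 10 genes 2 (Mcm2 and Mcm5) were lower on loss of IL-7 and 10 with CXCL12. With the inhibitor Mki67 was at 1739 and 1848 against 1761 and 2019 CPM, and again Mcm2 and Mcm5 were the 2 of 10 that fell.

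**Figure D3:**
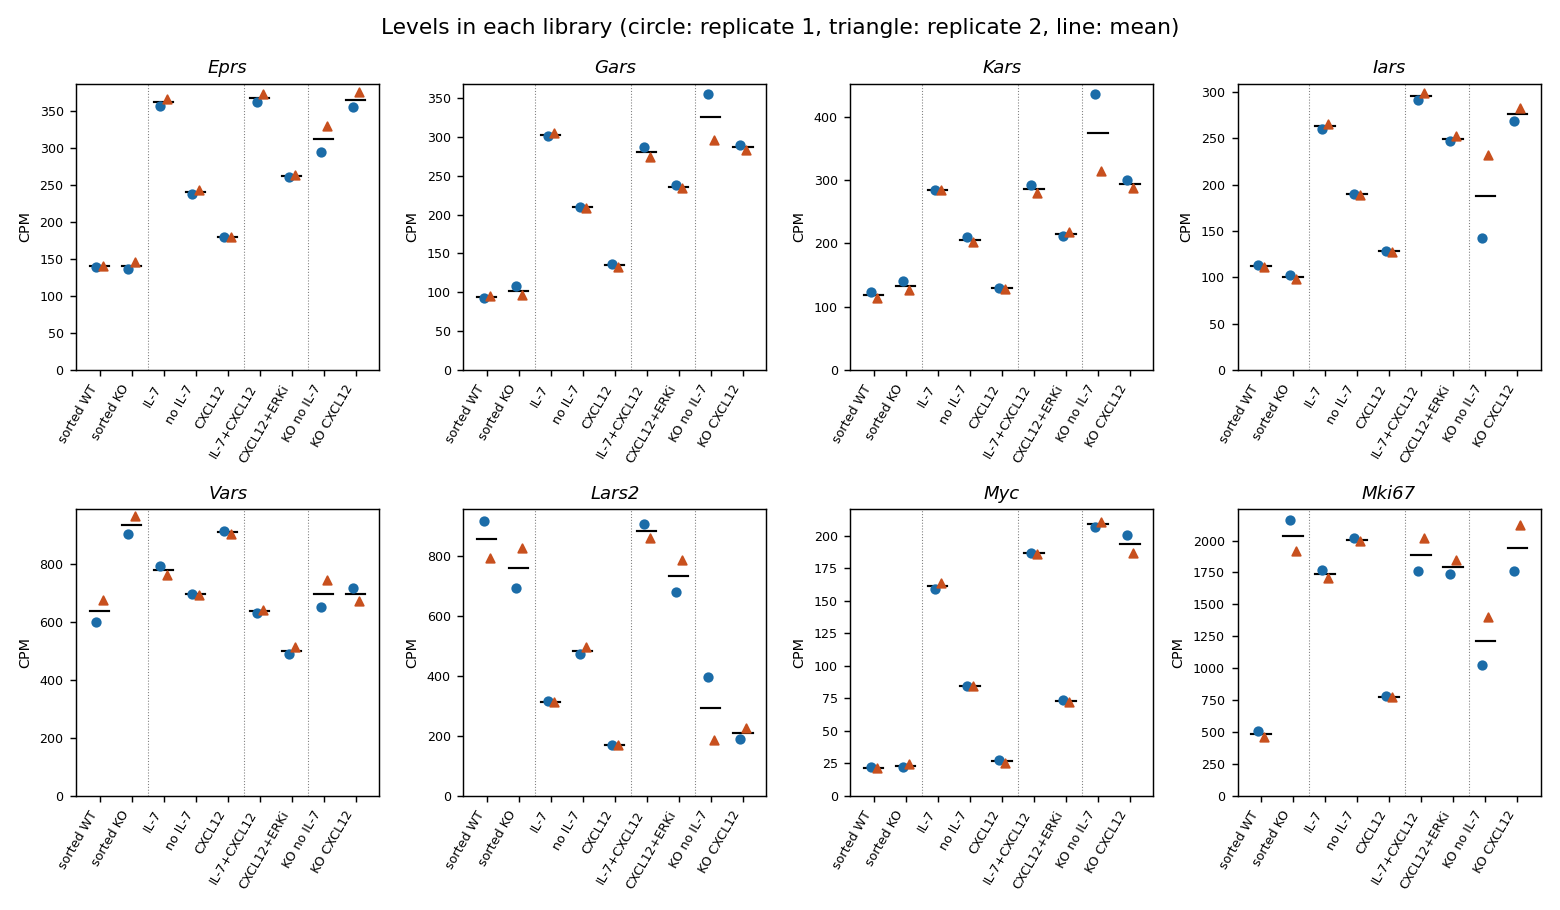
CPM of 6 synthetases, Myc and Mki67 in each library, by group (WT, wild type; KO, labelled CXCR4-deficient; ERKi, ERK inhibitor II), with replicate 1 as a circle, replicate 2 as a triangle, a line at the mean and dotted lines between the sets. Points of Eprs, Gars, Kars, Iars and Myc lie highest with IL-7, lower without it and lowest with CXCL12 among these 3 groups (the first difference did not pass the test for Iars), whereas Mki67 is at 1705 to 2019 CPM in the first 2 of them and at 779 and 774 CPM in the last.

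Summed markers of other cells rose along with the fall in the first set. The sum of 14 stromal markers was 610.1 and 997 CPM with IL-7, 1342 and 1324 CPM without and 3269.7 and 3202 CPM with CXCL12, with 1 marker at 0 in both libraries of each group. The sum of 15 myeloid markers was 170.2 and 226 CPM, then 308 and 307 CPM, then 764 and 769.5 CPM, with none at 0. Singly, 0 of the 15 myeloid markers were called on loss of IL-7, and of 13 stromal markers tested 0 were higher and 1 lower. With CXCL12 2 myeloid and 5 stromal markers were higher and 1 stromal marker lower (17.3% of all genes higher and 13.2% lower). The part of these markers in the result was not tested. The libraries with IL-7 differed 1.63-fold in the stromal sum. In the set with the inhibitor the stromal sum was 73.9 and 73.2 CPM with both factors and 126 and 136 CPM with the inhibitor, and the myeloid sum was 1976 and 1826 against 3470.1 and 3539.9 CPM.

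The wider tRNA pathway was read from lists of other genes, set beside the shares of all genes called lower (6.23% on loss of IL-7, 13.2% with CXCL12 and 4.54% with the inhibitor) or higher (5.6%, 17.3% and 6.5%). Of 29 tested genes of tRNA maturation and export, 15 fell on loss of IL-7, 7 with CXCL12 and 14 with the inhibitor in place of IL-7, and 0 rose in any. Examples on loss of IL-7 were Trmt61a (-1.07 ± 0.13) and Trmt6 (-0.55 ± 0.07), the subunits of a tRNA methyltransferase, Nsun2 (-0.92 ± 0.11), another, and the tRNA exporter Xpot (-0.67 ± 0.08). With CXCL12, Ssb (-0.50 ± 0.07), which binds new polymerase III transcripts, Xpot (-0.40 ± 0.08) and Mettl1 (-0.76 ± 0.17) fell. Of 22 genes of RNA polymerase III and its factors, which transcribe tRNA genes, 2 fell on loss of IL-7, Polr3e (-0.75 ± 0.09) and Polr3g (-0.75 ± 0.12), a share near that of all genes. With CXCL12, Polr3g (-0.90 ± 0.12) and Gtf3c5 (-0.58 ± 0.11) fell, and Brf1 (0.46 ± 0.10) and Polr3d (0.46 ± 0.13) rose, shares no larger than those of all genes. Of the 3 scaffold genes of the synthetase complex, Eef1e1 (-0.72 ± 0.15) and Aimp2 (-0.81 ± 0.23) fell on loss of IL-7. None of the 3 was called with CXCL12, where the median was -0.34. With the inhibitor 1 of the 3 and 2 of the 22 polymerase III genes fell, and 0 rose in either list.

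Of 6 cytosolic elongation factor genes, Eif5a (-0.79 ± 0.16) fell on loss of IL-7, and Eef2 (-0.43 ± 0.11), Eif5a (-0.58 ± 0.16) and Eef1a1 (-0.60 ± 0.18) fell with CXCL12. Of 19 mitochondrial charging partners and translation factors, Gatc (-0.40 ± 0.10), of the enzyme that makes mitochondrial glutaminyl-tRNA, and Gfm1 (-0.36 ± 0.10) fell on loss of IL-7. With CXCL12 1 rose, Mtfmt (0.37 ± 0.09), which formylates the initiator methionine. Of 32 genes of the Atf4 amino acid response 8 fell on loss of IL-7 and 0 rose, and with CXCL12 14 fell (13.2% of all genes) and 5 rose, the latter a share near the 17.3% of all genes. The falls with CXCL12 included Shmt2 (-1.31 ± 0.08), Psat1 (-1.18 ± 0.08) and Mthfd2 (-1.65 ± 0.12) of serine and one-carbon metabolism and the amino acid transporter Slc7a5 (-1.19 ± 0.13). With the inhibitor in place of IL-7, 1 of the 6 elongation factor genes and 2 of the 19 mitochondrial partners fell, and 0 rose. Of the 32 Atf4 response genes 3 fell and 2 rose there (median 0.01), against 4.54% and 6.5% of all genes.

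The cytosolic genes were also split by background knowledge of the enzymes. On loss of IL-7, among 12 synthetases usually listed as Atf4 targets 7 fell (median -0.42), and among the 8 others 5 fell (median -0.44). With CXCL12 9 of the 12 fell (median -0.52) and 5 of the 8 (median -0.31), where Vars is 1 of the 8. With the inhibitor in place of IL-7, 3 of the 12 fell (median -0.24) and 5 of the 8 (median -0.38). Of all genes 6.23%, 13.2% and 4.54% were lower in these steps, in that order. On loss of IL-7 6 of 8 complex members and 6 of the 12 outside fell, and with CXCL12 8 of 8 and 6 of 12. With the inhibitor 5 of 8 and 3 of 12 fell. Class I and class II enzymes gave 5 and 7 of 10 on loss of IL-7, and 8 and 6 of 10 with CXCL12. With the inhibitor they gave 4 and 4 of 10. Differences between these splits were not tested. The 5 genes with the C/EBP-ATF letters in the window, Aars, Gars, Iars, Tars and Yars, were all lower with CXCL12 (-0.49 to -0.64). Of these, Gars and Tars fell on loss of IL-7, and only Tars with the inhibitor. Among cytosolic genes with a matched window lacking the letters, Dars, Eprs, Farsb, Kars, Mars and Qars also fell with CXCL12 (-0.29 to -0.68). Farsa and Sars, matched and without the letters, did not pass there. A link between the letters and the changes was not tested.

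In CXCR4-deficient cultures without IL-7, addition of CXCL12 gave 2 cytosolic synthetases higher and 4 lower, and 0 mitochondrial ones higher and 6 lower, with 33.8% of all genes called, 12.8% higher and 21% lower. These shares, 6 of 20 and 6 of 16, lie near that of all genes. The counts rested on the library that stood apart. With replicate 1 without IL-7 left out, Iars was the 1 cytosolic gene called (8.16% of all genes), and with replicate 2 left out 14 were called, 3 higher and 11 lower (56.1% of all genes). Without either CXCL12 replicate, or in a fit of the 4 compared libraries alone, edgeR called 0 synthetases.

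Iars, for isoleucine, was at 143 and 231.7 CPM without and 269 and 283 CPM with CXCL12 (0.56 ± 0.16, edgeR adjusted p = 0.023), and this became 0.26 when replicate 1 was left out and 0.95 when replicate 2 was. Eprs was at 294 and 329.6 against 355 and 374 CPM (0.23 ± 0.08, edgeR adjusted p = 0.038). Sars, for serine, was at 283 and 186 against 169.9 and 162 CPM (-0.50 ± 0.14, edgeR adjusted p = 0.025), and Hars, for histidine, was at 221 and 163 against 147 and 139 CPM (-0.42 ± 0.12, edgeR adjusted p = 0.023). In Iars, Sars and Hars the replicates without IL-7 differed from each other by more than replicate 2 differed from the CXCL12 libraries. Kars (436 and 314 against 300.3 and 287 CPM, -0.35 ± 0.12, edgeR adjusted p = 0.045) and Rars (-0.27) were the other falls.

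The mitochondrial Cars2, for cysteine, was at 67.2 and 38.5 CPM without and 30.3 and 27.8 CPM with CXCL12 (-0.87 ± 0.19, edgeR adjusted p = 0.022). Yars2 was at 60.5 and 37.4 against 30.2 and 29.5 CPM (-0.71 ± 0.18, edgeR adjusted p = 0.022), and Fars2, for phenylalanine, at 44.9 and 24.6 against 24.2 and 19.96 CPM (-0.66 ± 0.22, edgeR adjusted p = 0.039). In 11 of 20 cytosolic and 11 of 16 mitochondrial genes both CXCL12 libraries lay below both without it, against 33.1% of all genes. They lay above in 3 (Aars, Eprs and Iars) and 2 (Iars2 and Mars2), against 27.8%. Replicate 1 was the high library in Cars2, Yars2 and Fars2, as it was in Ears2, Sars2 and Tars2, which completed the 6. Without it Cars2 was the 1 mitochondrial gene called.

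The difference between genotypes in the response to CXCL12 was tested by the interaction term. Of the cytosolic genes 7 were higher and 1 lower in this term, where 25.2% of all genes were called, 12.1% higher and 13.1% lower. In it 2 of the 16 mitochondrial genes were called, both lower. The median CXCL12 change of the cytosolic genes was -0.45 in the cultures not labelled deficient. It was -0.13 in CXCR4-deficient ones, -0.04 without replicate 1 without IL-7 and -0.18 without replicate 2.

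The largest term was that of Iars, with log2 changes of -0.56 and 0.56 in sufficient and deficient cultures and a difference of 1.12 ± 0.22 (edgeR adjusted p = 0.0036). Aars, for alanine, was at 243 and 238 against 165 and 165 CPM in sufficient cultures and 205 and 260.1 against 264 and 261 CPM in deficient ones (difference 0.72 ± 0.16, edgeR adjusted p = 0.0069). Eprs changed by -0.42 in the one genotype and 0.23 in the other (0.65 ± 0.11, edgeR adjusted p = 0.0011). These 3, with Dars (0.50) and the mitochondrial Cars2 (-1.11), were called in each of the 8 fits with 1 library left out. The size for Cars2 rested on the library that stood apart, at -0.54 without replicate 1 without IL-7 and -1.45 without replicate 2. Vars had a difference of -0.39 ± 0.13 (edgeR adjusted p = 0.040) and was called in 2 of those 8 fits. Without replicate 1 without IL-7, 15 cytosolic genes were higher and Vars was lower, with 31% of all genes called. Without replicate 2, 8 were higher and 3 lower (Hars, Sars and Vars), with 54.6% of all genes called, so that the share of 11 in 20 is near it. With the close pairs summed 1 cytosolic gene was called (7.1% of all genes), and in a fit of the 8 compared libraries alone 2 (9.57%).

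Genotype goes with the set of libraries in this comparison. Each change is taken within a set, yet a response that differs by genotype cannot be told apart from one that differs by set. In the same term all 10 cell cycle genes were higher (median 1.59). These 10 fell with CXCL12 in the first set. In deficient cultures 2 rose and 2 fell, where 12.8% of all genes were called higher and 21% lower. There 16 of 29 genes of tRNA maturation and export, 3 of 3 scaffold genes and 5 of 6 elongation factor genes fell. So did 9 of 19 mitochondrial partners, and 0 rose in any of these lists. Polymerase III genes gave 6 higher and 8 lower of 22, and Atf4 response genes 3 and 6 of 32. These lists were not refitted without replicate 1 without IL-7. Myc was at 207 and 211 CPM without and 201 and 187 CPM with CXCL12 in deficient cultures, a difference from the response in sufficient cultures of 1.56 ± 0.11 (edgeR adjusted p = 2.8e-06). Stromal sums were 82.8 to 104 CPM and myeloid sums 11.6 to 17.9 CPM in these 4 libraries. Of the stromal markers 1 to 3, and of the myeloid ones 3 to 6, were at 0 in both libraries of a group. The part of these in the result was not tested.

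**Figure D4:**
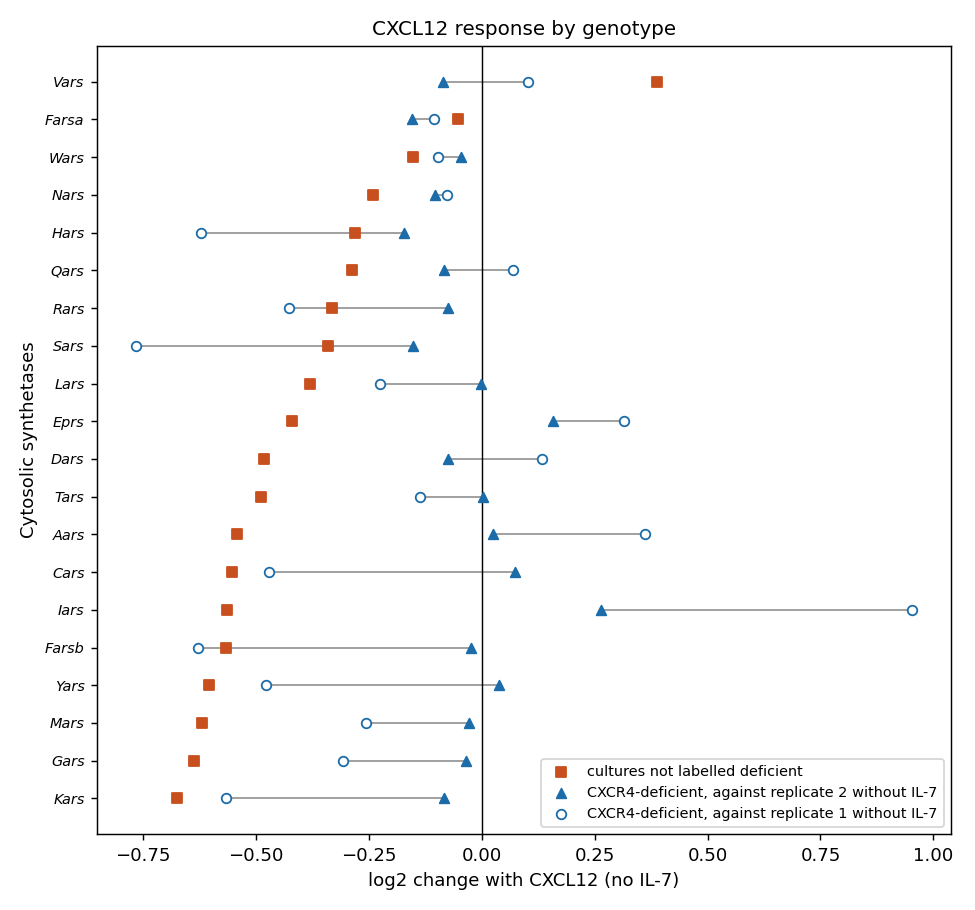
Log2 change with CXCL12 in the absence of IL-7 for the 20 cytosolic synthetases, in cultures not labelled deficient (squares) and in CXCR4-deficient cultures set against replicate 2 (triangles) or replicate 1 (circles) without IL-7. Most squares lie left of the triangles, which are near 0, and the bars between triangle and circle show how far 1 library moved the estimate, most in Iars (0.26 and 0.95).

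Between the sorted groups, cytosolic synthetases were called in either direction, 2 higher and 4 lower with the CXCR4-deficient label, at a median of 0.00. The background was 34.2% of all genes, 16.6% higher and 17.6% lower, so the share of 6 in 20 is near it. Aars was at 79.1 and 85.9 CPM in wild type and 157 and 135 CPM in CXCR4-deficient cells (0.83 ± 0.11, edgeR adjusted p = 1.4e-04), and Vars at 599.7 and 678 against 907 and 967 CPM (0.55 ± 0.09, edgeR adjusted p = 4.6e-04). Dars was at 102 and 98.5 against 63.6 and 68.4 CPM (-0.60 ± 0.08, edgeR adjusted p = 1.2e-04). Farsa (94.9 and 107 against 70.3 and 71.7 CPM, -0.50 ± 0.08) and Wars (109 and 111 against 87.9 and 84.5 CPM, -0.35 ± 0.07) fell with edgeR adjusted p of 5.3e-04 and 0.0017. The groups did not overlap in these 5 genes, and each call stood without any 1 library. A fit of the 4 sorted libraries alone also called 6 cytosolic genes, and 42% of all genes. Over all 20, 5 lay higher and 6 lower without overlap, against 33.1% and 37% of all genes. Lars (-0.30) was the 6th call.

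Mitochondrial synthetases gave 5 higher and 3 lower of 16, with a median of 0.05, where 16.6% of all genes were higher and 17.6% lower. Aars2, for alanine like Aars, was at 19.6 and 24.6 CPM in wild type and 38.5 and 41.3 CPM in CXCR4-deficient cells (0.85 ± 0.11, edgeR adjusted p = 7.3e-05). Sars2 was at 23.6 and 25.1 against 39.6 and 40.9 CPM (0.72 ± 0.16, edgeR adjusted p = 0.0034), and Wars2 at 17.5 and 18.0 against 11.8 and 13.1 CPM (-0.51 ± 0.09, edgeR adjusted p = 0.0013). These 3 calls stood without any 1 library. Pars2 (8.74 and 9.58 against 12.4 and 12.6 CPM, 0.45 ± 0.13) rose, and Hars2 (87.1 and 85.7 against 72.8 and 65.2 CPM, -0.32 ± 0.08) and Rars2 (30.8 and 30.1 against 23.99 and 26.0 CPM, -0.28 ± 0.08) fell, with edgeR adjusted p of 0.018, 0.0095 and 0.018. Tars2 and Vars2 (0.37 each) were the remaining rises.

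All 10 cell cycle genes were higher in the same CXCR4-deficient cells, with Mki67 at 505 and 462 against 2159 and 1915 CPM, while Myc was at 22.1 and 21.4 against 21.9 and 24.4 CPM and did not pass (0.09 ± 0.08, edgeR adjusted p = 0.43). Of 10 markers of mature B cells 9 were lower. The myeloid sum was 5738 and 5691 CPM in wild type and 7161 and 1242 CPM in the CXCR4-deficient libraries, and its part in the synthetase changes was not tested. The 5 cytosolic calls that stood kept their direction without replicate 1 or replicate 2 of either group. Their size moved, with log2 changes of 0.70 to 0.93 for Aars and -0.65 to -0.56 for Dars.

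Across sets the cytosolic counts were large in some comparisons. With both factors against IL-7 alone 1 cytosolic gene, Dars, was higher and 1, Vars, lower (31.8% of all genes called, 15.3% higher and 16.5% lower), and Lars2, Mars2, Rars2 and Hars2 were the 4 mitochondrial ones, all higher. With the ERK inhibitor under CXCL12 against CXCL12 alone 15 cytosolic genes were higher and Vars was lower (56.9% called, 26.9% higher and 30% lower), with 6 mitochondrial ones higher and Aars2 lower. CXCR4-deficient cultures had 15 higher and 0 lower without IL-7 (65.6% called, 31% higher and 34.6% lower) and 19 higher and Vars lower with CXCL12 (63% called, 27.3% higher and 35.7% lower), with 13 mitochondrial ones higher and 2 lower (Iars2 and Lars2), and 8 higher and 0 lower. Sorted wild-type cells against cultures with CXCL12 gave 5 higher and 8 lower (51.4% called, 23.8% higher and 27.6% lower), and 5 and 3 mitochondrial ones. In these comparisons medium, inhibitor or genotype cannot be told apart from the set of libraries.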

How the data were processed

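Libraries were prepared with a stranded mRNA kit, using oligo-dT, from B cells isolated by flow cytometry, per the labels' protocols. Per the submitters' processing notes the tools included STAR and featureCounts and the build was mm9; the sources used here give no versions, strand setting or annotation. The authors deposited a table of raw read counts per gene for the 18 RNA-seq libraries, 17257914 to 50235192 counts each. The ATAC-seq libraries were not analysed here, and no mm9 coordinates are printed.

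Libraries were grouped by the labels. Genes were kept by edgeR's filterByExpr (14862 of 23762), scaled by TMM, and fitted in 1 model of all 18 libraries without a replicate block, with edgeR 4.0.16's robust quasi-likelihood test in R 4.3.3. Each comparison was a contrast of that model, adjusted by Benjamini-Hochberg over all genes tested, with an adjusted p under 0.05 as the call. A standard error (SE) is the log2 change divided by the square root of F. The fit was tested on simulated data. CPM values are edgeR's cpm on the TMM-scaled totals. Levels were not compared between genes, since transcript lengths were not used. Alternatives were DESeq2 1.42.0, RLE factors, other filters, a replicate block, fits of fewer libraries, leaving out each library, and summing close replicates, with the spread estimated without 1 library added after seeing the data.

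Values in every library were given for up to 3 called genes with the largest fall and 3 with the largest rise per class in each within-set comparison, and for genes that moved against their class; up to 4 genes per other list were named by smallest p. Other genes named were chosen after their values were seen. The members and lists were chosen with earlier results of these data known. Promoters came from RefSeq tables.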

Additional observations from a re-analysis of the deposited data

Results flagged for a closer look

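The response to CXCL12 without IL-7 differed between cultures labelled CXCR4-deficient and the others for 10 of the 36 synthetases, by the interaction term of edgeR's quasi-likelihood test, a share near the 25.2% of all genes called. Genotype goes with the set of libraries here, so genotype and set cannot be told apart. The difference (deficient less the others, log2) was above 0 in 7 cytosolic genes. It was 1.12 for Iars (adjusted p = 0.0036), 0.72 for Aars (0.0069), 0.65 for Eprs (0.0011) and 0.50 for Dars (0.0079). It was 0.47 for Mars (adjusted p = 0.012), 0.45 for Gars (0.024) and 0.41 for Tars (0.012). It was below 0 in Vars, which rose with CXCL12 in the other cultures, at -0.39 (adjusted p = 0.040). It was also below 0 in the mitochondrial Hars2, at -0.47 (adjusted p = 0.013), and Cars2, at -1.11 (adjusted p = 0.0099). Replicate 1 of the CXCR4-deficient cultures without IL-7 enters each of these, and without it the values were 0.92 for Iars, 0.66 for Aars, 0.70 for Gars and -0.54 for Cars2, while Hars2 was at -0.27 and lost its call (adjusted p = 0.057). With each of 8 libraries left out in turn, Gars and Vars were called in 2 of 8 fits, Hars2 in 5, Mars and Tars in 7 and the other 5 genes in all 8.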

How the results depend on the processing

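Counts of called synthetases moved mainly with which libraries set the spread and how close pairs were counted. All counts here are cytosolic, then mitochondrial, at an adjusted p under 0.05. The share of all genes called moved with the setting too. A count given without that share shows how the count moved, not how synthetases compare with other genes. Leaving out 1 library at a time (a lone library is assumed to vary like the other groups) gave 6 to 8 and 0 to 1 for loss of IL-7 and 10 to 11 and 2 for CXCL12 without IL-7. It gave 18 to 19 and 8 to 10 for CXCL12 replacing IL-7, and 2 to 4 and 0 to 2 for the ERK inhibitor replacing IL-7. It gave 0 to 14 and 0 to 11 for CXCL12 in CXCR4-deficient cultures and 4 to 16 and 1 to 9 for the genotype difference. It gave 5 to 7 and 4 to 6 in sorted cells. Across sets it gave 0 to 1 and 1 to 2 for CXCL12 added with IL-7, 16 and 5 to 6 for the inhibitor under CXCL12, 15 to 18 and 11 to 14 for genotype without IL-7, 18 to 19 and 8 for genotype with CXCL12, and 9 and 5 to 6 for sorted cells against CXCL12 cultures.

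Fits of only the libraries compared gave 20 and 12 for loss of IL-7, 15 and 10 for the inhibitor replacing IL-7, and 0 and 0 for CXCL12 in deficient cultures. Of all genes 53.6%, 44.8% and 0% were called there, in that order. These fits gave 2 and 0 for the genotype difference (9.57% of all genes), 7 and 10 for CXCL12 added with IL-7 (59.7%), and 2 and 4 for genotype without IL-7 (19.2%). They gave 11 mitochondrial genes for CXCL12 without IL-7 (78% of all genes) and 12 for the inhibitor under CXCL12 (83.7%). Close pairs summed gave 3 and 0 for loss of IL-7, 3 and 1 for CXCL12 without IL-7, 1 and 0 for the genotype difference, 8 and 5 for sorted cells against CXCL12 cultures, and 7 mitochondrial genes for CXCL12 replacing IL-7. With the spread estimated without the library that stood apart, chosen after seeing the data, the inhibitor replacing IL-7 gave 15 and 11 and CXCL12 added with IL-7 gave 8 and 9. Sorted cells then gave 10 cytosolic genes (52.5% of all genes), and mitochondrial genes were 10 for loss of IL-7, 9 for CXCL12 without IL-7 and 11 for the inhibitor under CXCL12. Without the 4 libraries with both factors or the inhibitor, CXCL12 in deficient cultures gave 0 and 0, loss of IL-7 3 mitochondrial genes and sorted cells against CXCL12 cultures 5. With no filter, mitochondrial genes were 3 for loss of IL-7 and 3 for CXCL12 without IL-7, and cytosolic genes 5 for the inhibitor replacing IL-7 and 1 for CXCL12 added with IL-7. RLE factors gave 5 cytosolic genes for the inhibitor replacing IL-7. DESeq2 gave 4 mitochondrial genes there and 6 for the genotype difference, for which a 1 CPM filter gave 4. The cause of these moves was not tested.

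With the replicate number as a block, counts were 12 and 4 for loss of IL-7, 16 and 4 for CXCL12 without IL-7, 8 and 2 for the inhibitor replacing IL-7, and 8 and 2 for the genotype difference, and no count in the 12 comparisons moved by over 1.5 times. Same-numbered libraries did not deviate together (correlations from -0.16 to 0.21 over 36 pairs of groups), so they share only a number. Of the values of single genes 2762 kept their call or lack of one, 163 gained a call and 278 lost it. A change of direction was counted only for genes called in either fit, and 1 such value reversed. It was the genotype difference of Sars, -0.16 with all libraries. This was 0.29 without replicate 1 of the CXCR4-deficient cultures without IL-7 and -0.42 without replicate 2. Values called in neither fit are among the 2762 even where their sign changed, as for Hars (-0.14, and 0.21 without that replicate 1). With 2 libraries a group, small changes of low mitochondrial transcripts were not resolvable.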

Other observations

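Tarsl2, in the table but outside the set of 36, is given as levels with no test. Its protein resembles the threonine enzyme. It was at 15.1 and 14.3 CPM with IL-7, 10.4 and 10.9 CPM without, and 6.25 and 6.11 CPM with CXCL12 in its place. The libraries of these 3 culture groups did not overlap.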
